A study of Mus musculus with 5 samples.

Results

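The regions described here are the open chromatin sites around 5 genes that govern the choice between the CD4 and the CD8 lineage, namely Zbtb7b, Gata3, Runx3, Cbfb and Runx1. A site was taken where its summit lay in the gene body or within 50 kb of it on either side. By this rule 49 of 31116 peaks of the WT list and 36 of 25525 peaks of the dKO list were members, 85 of 56641 peaks in all. Of these, 46 WT and 35 dKO peaks met the study's criteria for a chromatin accessible (ChrAcc) site, which were a fold enrichment of at least 4, a p-value below 1e-05 and a q-value below 0.05, out of 28472 and 24363 such sites in the whole lists. The weakest member sites inside the criteria had a fold enrichment of 4.08 in WT and 4.97 in dKO cells, and the peaks just outside had 3.9 in WT and 3.6 in dKO cells.

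Zbtb7b encodes ThPOK, a zinc finger repressor that commits thymocytes to the CD4 helper lineage and holds down CD8 genes. Gata3 acts upstream of it on the CD4 side. Runx3 drives the CD8 cytotoxic lineage by silencing Cd4 and Zbtb7b, Runx1 shares its DNA sequence and silences Cd4 in immature thymocytes, and Cbfb encodes the common partner subunit without which Runx proteins bind DNA poorly. Runx1 and Runx3 are each transcribed from a distal promoter (P1) and a proximal promoter (P2), and mature T cells use the distal one of Runx3. Tcf1 and Lef1 are related DNA-binding proteins that T cells use throughout their life.

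Naive CD8+ T cells were sorted from the spleen as GFP+ TCRbeta+ CD44lo-med cells of mice 6 to 12 weeks old on the C57BL/6 background. All mice carried the hCD2-Cre transgene, which is active mainly in mature T cells, and a Rosa26-GFP allele that marks cells with Cre activity, because excision by this Cre was incomplete. WT mice (labelled wild type, 3 replicates) had intact Tcf7 and Lef1 genes, and dKO mice (labelled Tcf1-/-Lef1-/-, 2 replicates) carried floxed alleles of both (Tcf7 fl/fl Lef1 fl/fl), which Cre removes; Tcf7 encodes Tcf1. DNase I releases fragments from open chromatin, and the replicates of a genotype were pooled before peaks were called, which leaves 1 list per genotype, no spread between replicates and no p-value between genotypes. The WT pool held 83923734 fragments and the dKO pool 62242963, a ratio of 1.35.

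A site is described by a pair of values. The pileup is the number of fragments over its summit, and the fold enrichment is the pileup divided by the local background of the same pool. Because the pools differed in depth, each site was ranked by fold enrichment among the ChrAcc sites of its own list, from 0 to 100, and these percentiles were compared. Sites of both lists that overlapped by at least 1 bp are called shared. Pileup ratios of dKO to WT were taken per fragment kept and divided by 0.912, the median ratio of all 20626 shared WT sites, so that 1 stands for the typical shared site. For sites of 1 list, the pileup was also scaled to the other pool by this typical ratio. The ratio comes from sites found in both lists, whereas these sites were picked for presence in 1 alone. The scaled values can thus be too high and do not show that a site was lost or gained. All intervals are 95% intervals, and they cover counting error only. In pools of cells, a lower pileup from fewer open cells cannot be told apart from one with less cutting per cell.

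The start site of the long Runx3 transcript (P1) and that of the long Runx1 transcript were open in both genotypes, and their sites hold the same run of 18 bases with 2 adjacent copies of the Runx motif AACCACA. The run is in capitals in the 30 bases printed here in the direction of transcription of each gene, from chr4:134676418-134676447 for Runx3 and from chr16:92826270-92826299, on the minus strand of the mm9 genome, for Runx1:
Runx3 P1: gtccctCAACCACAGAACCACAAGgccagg
Runx1 P1: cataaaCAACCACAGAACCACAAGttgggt
The run lies 143 to 126 bp upstream of the Runx3 start site and 18 to 35 bp inside the first exon of Runx1, in its 5′ untranslated part. It was found after the sequences had been read, by a search for the longest sequence common to both sites. It occurred 3 times in chromosomes 1 to 19, X and Y, and 2 of 28472 WT sites and 2 of 24363 dKO sites held it, the pair shown.

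The Runx3 site around the WT summit is shown from chr4:134676281-134676447 on the plus strand, with the motif copies in capitals, to place them in the open site. The Runx1 site is shown from chr16:92826312-92826457 on the plus strand, where the gene runs from right to left and starts just left of the first base shown; the capitals mark the Ets motif CAGGAAG on the minus strand.
Runx3 start site: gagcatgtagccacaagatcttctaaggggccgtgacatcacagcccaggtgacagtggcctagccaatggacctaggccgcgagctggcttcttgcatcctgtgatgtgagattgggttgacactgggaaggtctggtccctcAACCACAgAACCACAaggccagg
Runx1 start site: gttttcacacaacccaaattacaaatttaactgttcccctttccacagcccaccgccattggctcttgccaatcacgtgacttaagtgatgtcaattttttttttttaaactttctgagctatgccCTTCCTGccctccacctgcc
Within 100 bp of the WT summit, CCAAT occurred on both strands in each of the 2 sites, and the Runx1 site also held the E-box CACGTG 3 bp from its summit. CCAAT was present in 24.8% and CACGTG in 6.89% of all WT sites in a window of this length.

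The Zbtb7b gene body had no site shared by both lists. Its only intronic site, found in the WT list alone, sits on an inverted repeat in intron 1, shown from chr3:89192871-89192956 on the plus strand with both arms in capitals:
Zbtb7b intron 1: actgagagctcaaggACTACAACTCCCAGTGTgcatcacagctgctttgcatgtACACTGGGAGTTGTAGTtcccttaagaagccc
Each arm has 17 bases, the arms are 22 bases apart, and the summit lies between them. A perfect inverted repeat with arms of at least 12 bases occurred within 100 bp of the summit in 0.625% of all WT sites, and among the 46 member sites in this 1 alone.

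**Figure D1:**
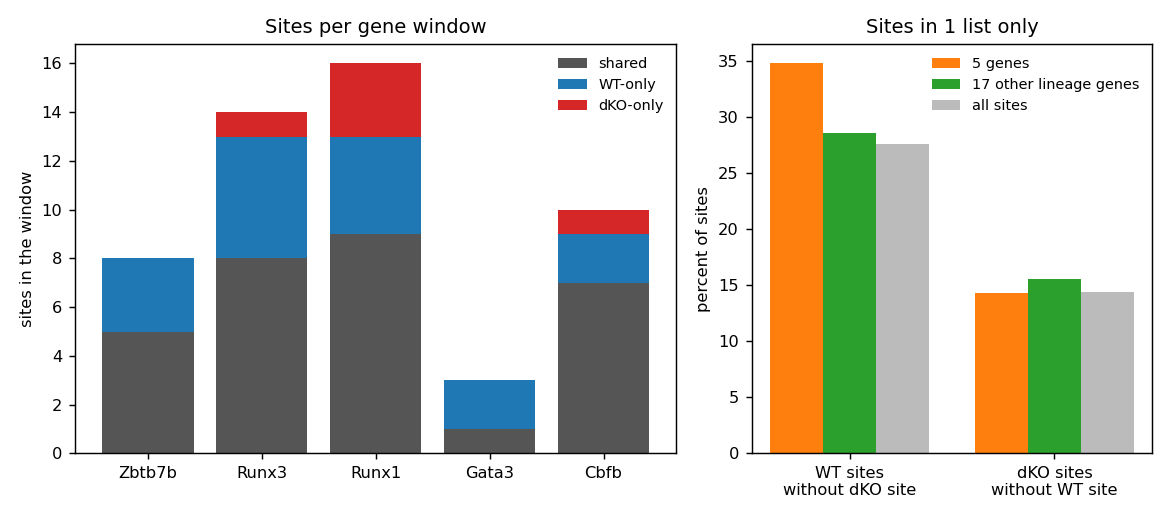
Left, ChrAcc sites in each gene window, stacked as shared, WT-only and dKO-only sites, counted over both lists. Right, percent of WT sites without a dKO site and of dKO sites without a WT site in the 5 windows, in the windows of 17 other lineage genes and over all sites. The 5 windows stand at 34.8% and 14.3%, against 27.6% and 14.4% over all sites.

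The 46 WT and 35 dKO sites made up 51 places in the genome, of which 30 were shared, 16 were WT-only and 5 were dKO-only, that is, with no site of the other list over them. The WT-only share was 34.8% of the WT sites, against 27.6% over the whole WT list. The dKO-only share was 14.3%, against 14.4% over the whole dKO list. Each of the 5 windows held more WT than dKO sites, with 8 against 5 at Zbtb7b, 3 against 1 at Gata3, 13 against 9 at Runx3, 9 against 8 at Cbfb and 13 against 12 at Runx1. Of all 22208 protein-coding genes, 8092 (36.4%) had more WT sites in such a window, 2761 had more dKO sites and 11355 had equal numbers. Windows of all genes held fewer sites, with medians of 3 in WT and 2 in dKO cells, against 9 and 8 in the 5 windows. Equal numbers are more likely where sites are few, so the 36.4% is not a like comparison. The excess of WT sites depended on the criterion. With a minimum fold enrichment of 8, the windows held 19 WT and 21 dKO sites, and with a q-value under 1e-10 they held 44 and 31. Among the 20000 peaks with the highest −log10 p of each list they held 30 WT and 29 dKO sites. The WT-only and dKO-only shares, taken against sites meeting the same criterion, were 21.1% and 28.6% at a fold enrichment of 8. Among the 20000 peaks they were 13.3% and 10.3%. Shares over all sites were not taken at these criteria, so these values cannot be read as particular to the 5 genes. The order within genes was lost as well: at a fold enrichment of 8 only Zbtb7b had more WT sites, with 4 against 3, while Cbfb had 5 against 8, and among the 20000 peaks Zbtb7b had 4 against 5, Cbfb 7 against 8 and Gata3 1 in each list.

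The WT-only sites had a median percentile of 21.8, against 24.3 for all WT-only sites, and 2 of 16 reached a fold enrichment of 8, against 22.2% of all WT-only sites. No weaker dKO peak lay under any of the 16. The 5 dKO-only sites had percentiles of 11.3 to 45.9 and a median of 12.5, against 18 for all dKO-only sites, and 2 of them lay over a WT peak that missed the criteria. In the windows, 11 of 29 distal WT sites (37.9%) were WT-only, against 35.3% of all distal WT sites, and 5 of 17 WT sites within 1 kb of a start site (29.4%), against 16.5% of all such WT sites.

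Among the 30 shared sites, 8 ranked at least 10 points higher in WT and 7 at least 10 points higher in dKO cells. Over all shared WT sites, the shares were 30.2% and 17.4%. The balance in the windows depended on the setting. Ranked by pileup, 10 sites were higher in WT and 4 in dKO cells, and with a q-value under 1e-10 the numbers were 10 and 3. Among the 20000 peaks with the highest −log10 p of each list, they were 4 and 9. Shares over all shared sites were not taken at these settings, so it is not known whether the whole lists shift in the same way. The median difference between dKO and WT was -0.746 points in the windows and -2.48 points over all shared sites. The centred ratio ran from 0.552 to 1.55 over the 30 sites, and its interval left out 1 at 2 of them, the Pygo2 promoter in the Zbtb7b window, which was lower in dKO cells, and the Runx1 start site, which was higher. Over all shared WT sites, the interval lay below 1 in 5.39% and above 1 in 7.77%, so the windows held no excess of such sites.

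**Figure D2:**
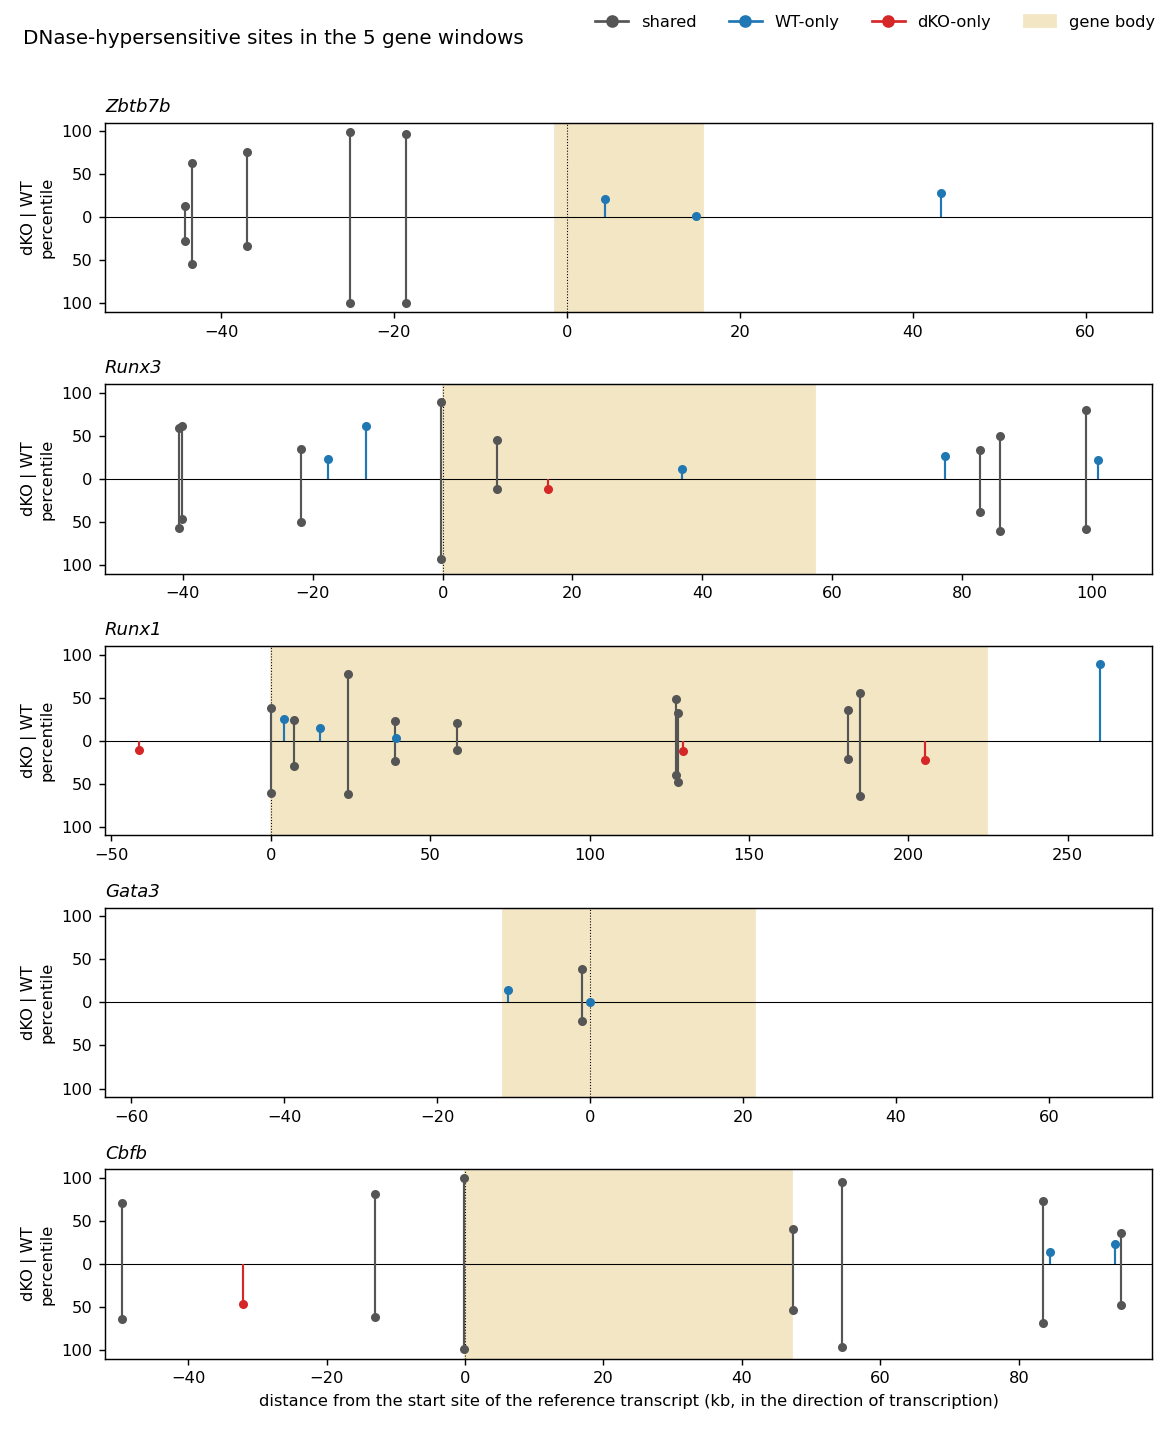
Sites in the 5 windows by distance from the start site of the reference transcript in kb, with the percentile of fold enrichment in the WT list drawn upwards and in the dKO list downwards. Shading marks the gene body and the dotted line the start site. The gene bodies of Zbtb7b and Gata3 hold weak sites, while the start sites of Runx3 and Cbfb lie near the top of both lists.

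On the CD4 side, Zbtb7b (chr3:89181566-89198698, minus strand) had no site within 1 kb of any of its annotated start sites in either list. The nearest dKO site lay 18627 bp from the start of its reference transcript. In WT cells, the intron 1 site described above (chr3:89192879-89192976) lay 4.37 kb downstream of that start and had 31 fragments over its summit (interval 21.1 to 44) and percentile 21.5. A second WT-only site lay in the untranslated part of the last exon, 14.9 kb downstream, with 21 fragments and percentile 1.19, near the foot of the list. It holds CAGNNGGC, the core of the sequence bound by CTCF, 11 bp from its summit; these letters were in 24.6% of all WT sites. The third WT-only site, with 36 fragments and percentile 27.8, was at the start of the neighbouring gene Adam15.

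The strong sites of the Zbtb7b window belonged to the promoters of its neighbours. The Cks1b and Shc1 promoter, 25.1 kb upstream, had 209 WT and 144 dKO fragments and stood at percentile 99.7 in both lists, and the Flad1 promoter stood at 96.8 in WT and 98.9 in dKO cells. The Pygo2 promoter (chr3:89234072-89234402 in WT) had the largest rank difference of the 30 shared sites. It had 75 WT fragments (59 to 94) and 28 dKO fragments (18.6 to 40.5), stood at percentile 75.7 in WT and 33 in dKO cells, and had a centred ratio of 0.552 (0.344 to 0.862). Pygo2 encodes a cofactor of beta-catenin, a protein that binds Tcf1 and Lef1. A site near the Pbxip1 start, 44.2 kb upstream, ranked the other way, at 13.5 in WT and 27.9 in dKO cells, with 29 and 26 fragments; ranked by pileup, the difference fell from 14.4 to 7.18 points.

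Gata3 (chr2:9778705-9811661, minus strand) had 3 WT sites and 1 dKO site, the fewest of the 5 genes, and all of them lay upstream of the start of its reference transcript. The shared site, 1.04 kb upstream (chr2:9801232-9801410 in WT), had 90 WT fragments (72.4 to 111) and 51 dKO fragments (38 to 67.1), with percentiles of 39 and 21.5 and a centred ratio of 0.838 (0.582 to 1.19), so its pileup did not differ beyond counting error. The back-calculated local background there was about 12.4 fragments in WT and 8.72 in dKO cells. The medians over all sites, obtained in the same way, were 6.57 and 4.82. The sequence at this site, from chr2:9801192-9801342 on the plus strand, is shown because it is the only Gata3 site of both genotypes. None of the 4 motifs searched is in it.
Gata3, 1.04 kb upstream: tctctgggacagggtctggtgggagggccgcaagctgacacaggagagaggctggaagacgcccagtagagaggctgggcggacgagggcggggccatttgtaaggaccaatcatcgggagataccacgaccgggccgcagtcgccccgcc
The other 2 sites were WT-only. One lay 44 bp upstream of the reference start, with 49 fragments (36.3 to 64.8) over a background of 12 and a fold enrichment of 4.08, just inside the criteria, at percentile 0.773. The other lay 657 bp inside the gene from its upstream start site, near the start of the gene 9230102O04Rik, with 36 fragments and percentile 14.8.

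**Figure D3:**
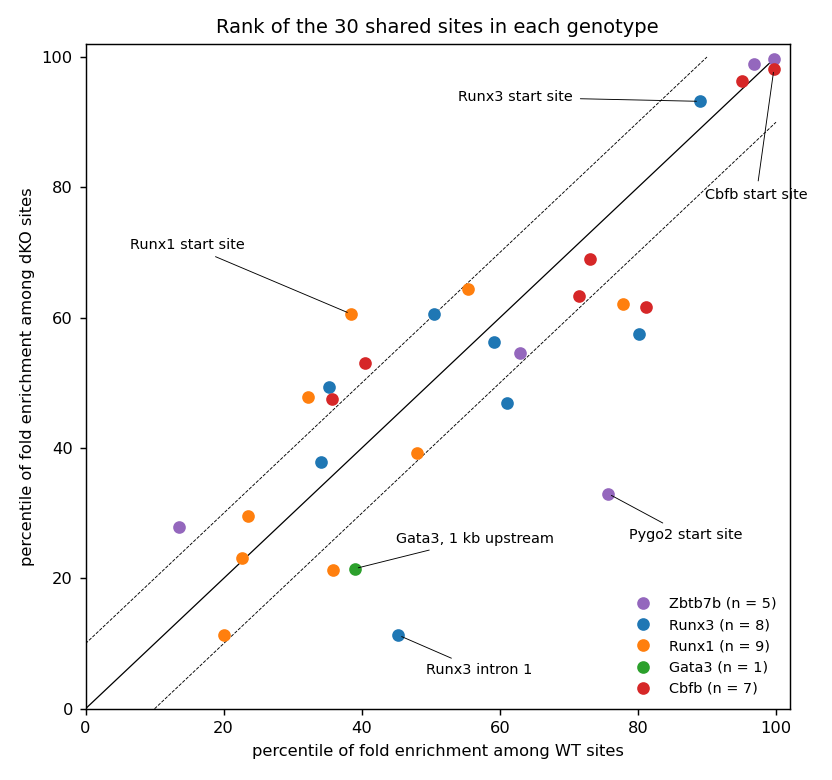
Percentile of fold enrichment among WT sites against that among dKO sites for the 30 shared sites, coloured by gene window. The solid line marks equal rank and the dashed lines a difference of 10 points; 8 sites lie below the lower and 7 above the upper dashed line.

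On the CD8 side, Runx3 (chr4:134676567-134733905, plus strand) had its strongest site in both lists at P1, 211 bp upstream of the start (chr4:134676150-134676564 in WT). It had 164 WT fragments (140 to 191) and 104 dKO fragments (85 to 126), with percentiles of 89 and 93.2 and a centred ratio of 0.937 (0.726 to 1.21). Its rank difference of 4.15 points turned to -1.02 by −log10 p and -2.01 by pileup. No site lay within 1 kb of the proximal start in either list, the nearest being 5019 bp away in WT and 15643 bp away in dKO cells. Thus the promoter known from mature T cells was open in both genotypes, without a detectable difference at this depth.

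Among the distal sites of Runx3, a shared site in intron 1, 8.36 kb downstream, had 48 WT fragments (35.4 to 63.6) and 20 dKO fragments (12.2 to 30.9) and stood at percentile 45.3 in WT and 11.3 in dKO cells, although the interval of its centred ratio, 0.616 (0.346 to 1.06), reached 1. Upstream, a WT-only site at 11.8 kb (chr4:134664712-134664860) had 54 fragments (40.6 to 70.5) and percentile 61.4. It was the strongest WT-only site of this gene. Scaled by the typical ratio, this site would have 36.5 fragments in the dKO pool. It is shown from chr4:134664723-134664873 on the plus strand, with a Runx motif and the Gata motif AGATAA of the minus strand in capitals:
Runx3, 11.8 kb upstream: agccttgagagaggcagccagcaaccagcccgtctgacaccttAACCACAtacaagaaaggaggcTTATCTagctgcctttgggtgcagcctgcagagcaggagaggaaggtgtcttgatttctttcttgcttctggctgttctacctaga
A second WT-only site lay 17.7 kb upstream, with 44 fragments and percentile 23.6. The shared site at 21.9 kb upstream ranked higher in dKO cells, at 49.4 against 35.2, with 44 dKO and 48 WT fragments. The dKO list added 1 site of its own in intron 1, 16.2 kb downstream, with 20 fragments and percentile 11.3. Scaled by the typical ratio, this site would have 29.6 fragments in the WT pool.

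Downstream of Runx3, a WT-only site 77.4 kb from the start had 32 fragments and percentile 26.5. The shared site at 85.9 kb stood at percentile 50.4 in WT and 60.5 in dKO cells by fold enrichment; ranked by −log10 p or by pileup, it stood lower in dKO cells. The strongest distal WT site of the window, 99.2 kb downstream near the end of the window and inside Clic4, was 101 bp wide in both lists and stood at percentile 80.2 in WT and 57.5 in dKO cells, with 67 and 38 fragments. The remaining shared sites ranked between percentiles 34.1 and 61.1 in WT cells, and the remaining WT-only sites at 12 and 22.1.

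The Runx motif recurred at Runx3. Within 100 bp of the summit, 6 of its 13 WT sites held AACCACA on either strand, against 9.67% of all WT sites, and 4 of its 5 WT-only sites did. The sites at 36.9 kb and 101 kb downstream are named here after their values were seen, because the motif singles them out. The motif is in capitals, on the strand that carries it, in the windows chr4:134664741-134664797, chr4:134713396-134713452, chr4:134753949-134754005 and chr4:134777521-134777577:
11.8 kb upstream: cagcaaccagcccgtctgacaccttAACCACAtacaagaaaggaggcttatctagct
36.9 kb downstream: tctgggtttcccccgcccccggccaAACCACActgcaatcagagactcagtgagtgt
77.4 kb downstream: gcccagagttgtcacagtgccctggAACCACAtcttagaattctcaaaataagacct
101 kb downstream: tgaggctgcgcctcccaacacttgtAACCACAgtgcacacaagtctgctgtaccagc
Over the 5 windows, 11 of 46 WT sites (23.9%) and 7 of 35 dKO sites (20%) held it, against 9.67% and 10.6% of all sites. Of the 16 WT-only sites 5 did (31.2%), against 10.2% of all WT-only sites, and of the 5 dKO-only sites 0 did, against 16.5% of all dKO-only sites. At Runx1, 4 of 13 WT and 3 of 12 dKO sites held it, and at Cbfb 1 of 9 and 1 of 8. None of the sites at Zbtb7b or Gata3 held it, but these windows had only 8 and 3 WT sites. Such a match describes the sequence and does not show that a Runx protein is bound.

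Cbfb (chr8:107694574-107741886, plus strand) had the strongest member promoter. Its site, 127 bp upstream of the start (chr8:107694327-107694593 in WT), had 204 WT fragments (177 to 234) and 113 dKO fragments (93.1 to 136) and stood at percentiles 99.7 and 98.2. Its centred ratio was 0.819 (0.645 to 1.04), so the 2 pools could not be told apart beyond counting error. The GC content of the 201 bp around this summit was 68.2%, and they hold none of the 4 motifs. The sequence is from chr8:107694372-107694522 on the plus strand:
Cbfb start site: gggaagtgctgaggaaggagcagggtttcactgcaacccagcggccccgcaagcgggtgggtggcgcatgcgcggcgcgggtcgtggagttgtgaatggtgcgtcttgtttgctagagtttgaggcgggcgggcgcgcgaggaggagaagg

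Away from the promoter, no site lay inside the Cbfb gene body. Just past its end, a shared site 47.4 kb downstream of the start stood at percentile 40.5 in WT and 53 in dKO cells, with 39 and 36 fragments. It is 1 of 2 member sites with the Tcf/Lef motif ATCAAAG, in capitals on the minus strand in the sequence from chr8:107741896-107742046:
Cbfb, 47.4 kb downstream: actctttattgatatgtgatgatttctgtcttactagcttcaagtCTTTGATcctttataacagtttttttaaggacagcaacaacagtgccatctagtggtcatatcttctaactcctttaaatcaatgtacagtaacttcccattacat
A shared site 12.9 kb upstream ranked higher in WT, at 81.1 against 61.6, with 68 and 40 fragments. The highest-ranked site away from the Cbfb start, 54.4 kb downstream, was the promoter of D230025D16Rik, at percentiles 95.1 and 96.3. The strongest dKO-only site of all 5 windows lay 32.1 kb upstream, in the Ces4a gene (chr8:107662406-107662506), with 33 fragments (22.7 to 46.3) and percentile 45.9. Scaled by the typical ratio, this site would have 48.8 fragments in the WT pool. The WT list had no peak there. In the dense stretch downstream, 2 WT-only sites at 84.5 and 93.9 kb stood at percentiles 14.3 and 23.5, beside a shared site at 94.8 kb that ranked higher in dKO cells, at 47.6 against 35.7; ranked by pileup, this difference of 11.9 points fell to 1.71.

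**Figure D4:**
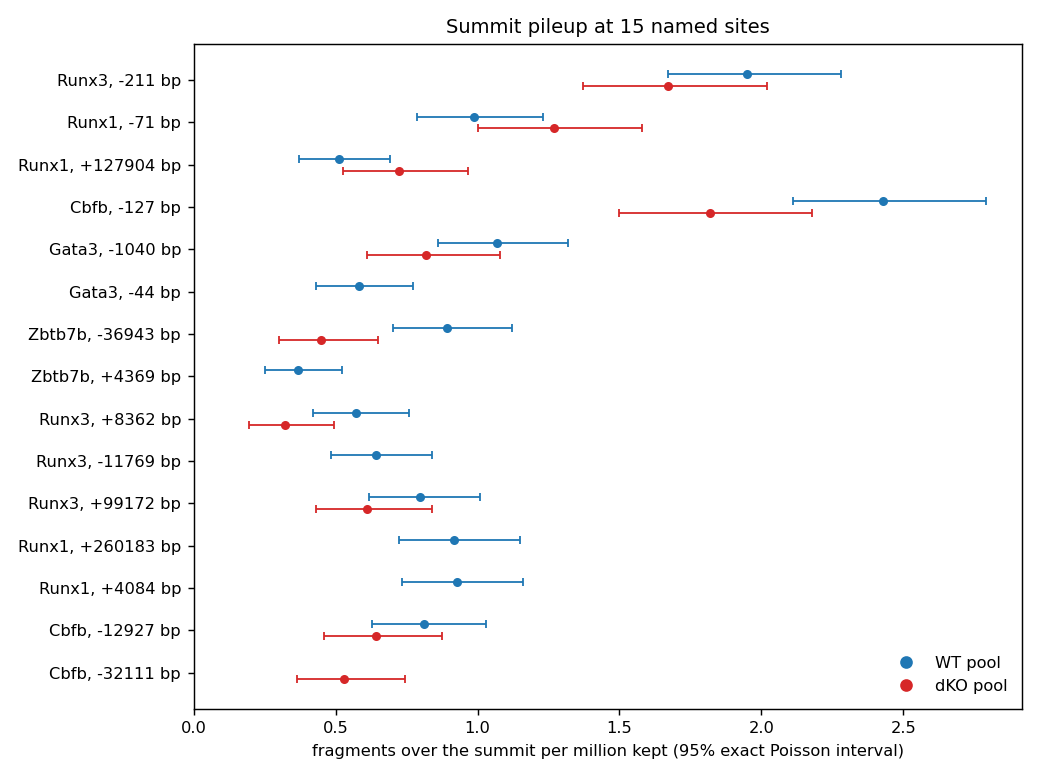
Fragments over the summit per 1000000 kept in the WT and the dKO pool at 15 named sites, with 95% exact Poisson intervals; sites are named by gene and distance from the reference start site, and a missing point means no ChrAcc site in that list. At the Runx1 start site (71 bp upstream) the dKO pool is the higher one, with 1.27 against 0.989, and at the Pygo2 promoter (36943 bp upstream of Zbtb7b) the WT pool is, with 0.894 against 0.45.

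Runx1 (chr16:92601712-92826311, minus strand) is the largest of the 5 genes, with a window of 325 kb. Both of its promoters ranked at least 10 points higher in dKO cells, as did 17.4% of all shared WT sites. The only other promoters of the 5 genes with a site in both lists, those of Runx3 and Cbfb, differed by 4.15 and -1.45 points. At the distal start, the site, 71 bp upstream of the start (chr16:92826262-92826489 in WT), had 83 WT fragments (66.1 to 103) and 79 dKO fragments (62.5 to 98.5), although the dKO pool was the smaller one. It ranked at 38.4 among WT and at 60.6 among dKO sites, a difference of 22.2 points that fell to 13.8 when ranked by pileup, and its centred ratio was 1.41 (1.02 to 1.94). The dKO peak was 441 bp wide and the WT peak 228 bp. A separate dKO peak 3.6-fold over background on its inner flank missed the criteria.

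At the proximal promoter of Runx1, the pileups did not differ beyond counting error. A site 834 bp upstream of the proximal start (chr16:92698301-92698456 in WT) had 43 WT fragments (31.1 to 57.9) and 45 dKO fragments (32.8 to 60.2), stood at percentile 32.2 in WT and 47.9 in dKO cells, and had a centred ratio of 1.55 (0.996 to 2.41); its rank difference rose from 15.7 to 22.4 points by pileup. On the other side of that start, 500 bp inside the transcript, lay a dKO-only site with 28 fragments and percentile 12.5. The WT list had a peak there of 18 fragments and a fold enrichment of 2.87, below the criteria. The other dKO-only sites of the gene, 205 kb downstream in intron 6 and 41.5 kb upstream of the distal start, stood at percentiles 22.6 and 11.3. Under the one in intron 6 lay a WT peak of 20 fragments and a fold enrichment of 3.9, just outside the criteria. Scaled by the typical ratio, these 3 dKO-only sites would have 41.4, 35.5 and 29.6 fragments in the WT pool, in the order named.

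Other Runx1 sites ranked higher in WT cells. In intron 2, the site 24.3 kb downstream of the distal start stood at percentile 77.8 in WT and 62.1 in dKO cells, with 88 and 57 fragments and a centred ratio of 0.958 (0.674 to 1.35); ranked by pileup, the difference went from -15.7 to -6.66 points. In intron 5, the site 181 kb downstream stood at 35.8 and 21.3. The strongest distal dKO site, 185 kb downstream in intron 6, ranked at 55.4 in WT and 64.4 in dKO cells, with 74 and 55 fragments; this difference of 9.08 points fell to 3.71 by −log10 p and 0.87 by pileup. Of the WT-only sites, the one 4.08 kb downstream in intron 2 was 442 bp wide, the widest WT-only site of the 5 windows, with 78 fragments (61.7 to 97.3) over a local background of 12.9 and percentile 25.5. Scaled by the typical ratio, this site would have 52.8 fragments in the dKO pool. It holds 1 Runx motif.

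Another WT-only site in intron 2, 15.3 kb downstream with 32 fragments and percentile 15.2, is the other member site with ATCAAAG. It is shown from chr16:92810891-92811041 on the plus strand, with ATCAAAG and an Ets motif of the minus strand in capitals:
Runx1, 15.3 kb downstream: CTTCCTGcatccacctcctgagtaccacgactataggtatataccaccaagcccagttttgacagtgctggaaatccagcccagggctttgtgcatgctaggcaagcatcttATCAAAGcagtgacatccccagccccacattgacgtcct
Sites with ATCAAAG were thus 2 of 46 in WT (4.35%), against 3.81% of all WT sites, and 1 of 35 in dKO cells (2.86%), against 2.42% of all dKO sites. Among WT-only sites the motif was in 1 of 16 (6.25%), against 6.98% of all WT-only sites. The Gata motif was in 6.52% of the WT and 8.57% of the dKO member sites, against 6.03% and 6.62% of all sites, and the Ets motif in 26.1% and 25.7%, against 18.2% and 18.3%.

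The strongest WT-only site of all 5 windows lay past the 3′ end of Runx1, 260 kb downstream of its start (chr16:92566082-92566180). It had 77 fragments (60.8 to 96.2), a fold enrichment of 14.5 and percentile 88.7, in a peak of 99 bp. Scaled by the typical ratio, this site would have 52.1 fragments in the dKO pool, a value that can be too high because the site was picked as WT-only. The dKO list had no peak there, not even below the criteria. The sequence was searched for CAGNNGGC after it had been seen, and the match nearest the summit is in capitals in chr16:92566053-92566203 on the plus strand, followed by the dKO-only Cbfb site at 32.1 kb (chr8:107662388-107662538) and the shared Cbfb site at 12.9 kb upstream (chr8:107681572-107681722), which have it too:
Runx1, 260 kb downstream: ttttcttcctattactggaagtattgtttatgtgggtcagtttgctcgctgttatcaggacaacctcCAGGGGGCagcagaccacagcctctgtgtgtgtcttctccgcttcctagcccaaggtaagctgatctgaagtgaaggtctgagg
Cbfb, 32.1 kb upstream: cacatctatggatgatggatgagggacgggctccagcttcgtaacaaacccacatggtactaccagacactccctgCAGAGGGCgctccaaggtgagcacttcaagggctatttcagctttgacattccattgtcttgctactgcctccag
Cbfb, 12.9 kb upstream: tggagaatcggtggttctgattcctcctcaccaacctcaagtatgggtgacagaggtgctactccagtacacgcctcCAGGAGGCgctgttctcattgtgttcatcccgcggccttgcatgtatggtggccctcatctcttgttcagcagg
CTCF binds at the ends of chromatin loops. All 3 sites were narrow, with peaks of 99 to 116 bp, and the matches shown began 8, 1 and 2 bp from the summit. Above percentile 50 of each list, peaks of at most 120 bp held these letters in 38.4% of WT and 34.8% of dKO sites, against 24.6% and 23.8% of all sites. The dKO-only Cbfb site, at percentile 45.9, was below that limit. Of the 3 member sites of this kind in each list, 2 in WT and 1 in dKO cells held the letters; the Runx3 site at 99.2 kb lacked them, as did the Cbfb site at 47.4 kb, where the dKO peak was 97 bp wide. Over all member sites, 9 of 46 WT sites (19.6%) and 8 of 35 dKO sites (22.9%) held the letters.

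Windows of 17 other genes of the CD4 and CD8 lineages (Runx2, Tox, Myb, Patz1, Zbtb7a, Satb1, Bcl11b, Ets1, Il7r, Stat5a, Stat5b, Socs1, Cd4, Cd8a, Cd8b1, Itgae and Prf1) held 161 WT sites, of which 28.6% were WT-only, and 135 dKO sites, of which 15.6% were dKO-only. Of these genes 11 had more WT sites, 2 more dKO sites and 4 equal numbers. Some of these windows overlap. The 161 and 135 sites are counted once each, but the tally by gene counts some sites for more than 1 gene. At Cd8a, which encodes a chain of the CD8 coreceptor, there were 9 WT and 10 dKO sites. At Cd4, the gene that Runx proteins silence in CD8+ cells, there were 10 WT and 9 dKO sites. Per 100 kb of window, Runx3 had 8.26 WT sites and lay at percentile 94.7 of 22208 protein-coding genes, Zbtb7b had 6.83 (90.4), Cbfb 6.11 (87.1), Runx1 4 (73.3) and Gata3 2.26 (52.3). These densities include sites of neighbouring genes. Within 1 kb of a start of another gene lay 6 of 8 places at Zbtb7b and 5 of 10 at Cbfb, against 1 of 14 at Runx3, 0 of 16 at Runx1 and 1 of 3 at Gata3. In dKO cells Gata3 stood at 0.752 sites per 100 kb (percentile 33.1), below the median of 1.77 over all genes.

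The identity of the sorted cells was checked at start sites of 19 marker genes, and the other genes of the marker list are not reported here. Sites lay within 1 kb of a start of all 4 T cell genes (Cd3e, Cd3d, Cd5 and Lck) in WT and of 3 in dKO cells, where Cd3d had none, and of both CD8 genes (Cd8a and Cd8b1) and of Ccr7 and Il7r, genes of naive cells, in both genotypes. None of the CD4 T cell genes Cd4 and Cd40lg, the regulatory T cell gene Foxp3, the B cell genes Cd79a, Ms4a1 and Pax5 or the NK cell genes Ncr1 and Klrb1c had one in either list. Of the myeloid genes Csf1r, Lyz2 and Spi1, a dKO site at Spi1 stood at percentile 3.55, and its part in the other results was not tested. For comparison, the highest-ranked start sites of the T cell, CD8 and naive genes ran from Cd8a, at percentile 4.58 in WT and 10.3 in dKO cells, to Ccr7, at 70.2 and 64.4.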

How the data were processed

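DNase-seq of naive CD8+ T cells covered 3 WT and 2 dKO replicates. The authors aligned paired reads to mm9 with Bowtie2 2.2.5, removed duplicates, pooled the replicates of each genotype and called peaks with MACS2 2.1.1.20160309 without a control. The deposited pileup is a signal (coverage in fragments, not scaled to depth), the deposited fold enrichment is a ratio of it to the local background, and the deposited −log10 p and −log10 q are from the authors' test against that background. Per the file headers, 50% of the fragments read were kept in each pool, and each header names 2 alignment files of the same pool.

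The members and lists were chosen with earlier results of these data known. ChrAcc criteria followed the study. Genes and start sites came from GENCODE M1 on mm9, with transcript 001, or the longest one, as the reference. Named sites were those within 1 kb of a start site of a member; for each member and list the site with the highest fold enrichment over 1 kb from its start sites; for each member the 3 highest-ranked WT-only and dKO-only sites; and the 2 shared sites with the largest rank difference in each direction, of at least 10 points. The motifs of Tcf/Lef (ATCAAAG), Runx, Gata and Ets proteins, the others spelled out above, were sought on both strands within 100 bp of each summit (window of 201 bp). Pileup intervals are exact Poisson intervals, and ratio intervals are exact conditional ones. Annotated UTR bases were left out of printed sequences except in the 30-base windows. Some marker genes of the list are not reported here. The overlap step was tested on simulated data. Copies of the sequence around each summit were sought with blastn 2.17.0 (90% identity over 80% of the length). Computation used Python 3.11.15, numpy 2.4.6, pandas 2.3.3, scipy 1.17.1, pysam 0.24.0 and samtools 1.23.1, and plots matplotlib 3.10.9. Alternatives were other criteria, windows, overlaps, rank measures and thresholds.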

Additional observations from a re-analysis of the deposited data

How the results depend on the processing

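WT sites outnumbered dKO sites under each alternative except a minimum fold enrichment of 8. That minimum left 19 WT, 21 dKO, 4 WT-only and 6 dKO-only sites and 6 shared sites higher in WT and 2 in dKO; under each alternative criterion, a site counts as WT-only or dKO-only where no site of the other list that meets the same criterion lies over it, and 2 of these 4 WT-only and 1 of these 6 dKO-only sites were so in the main lists. With q under 1e-10, 3 sites were dKO-only and 3 shared sites were higher in dKO. The 20000 strongest peaks of each list gave 30 WT, 4 WT-only and 3 dKO-only sites, with 4 shared sites higher in WT and 9 in dKO. Windows of 25 kb held 30 WT, 22 dKO and 3 dKO-only sites, with 5 shared sites higher in WT and 4 in dKO, and windows of 100 kb held 8 dKO-only sites. Of the 5 genes, 1 had more WT sites at a fold enrichment of 8, 2 among the 20000 strongest peaks, 3 with gene bodies alone and 4 with windows of 25 kb or without promoters of other genes. Gene bodies alone held 18 WT, 13 dKO, 8 WT-only and 3 dKO-only sites, with 4 shared sites higher in WT and 1 in dKO. Ranked by pileup, 10 shared sites were higher in WT and 4 in dKO. A difference of 20 points left 3 higher in WT and 1 in dKO, and a centred pileup ratio of 1.5-fold left 2 and 1. Fewer sites or smaller windows give lower counts by construction. Other causes were not tested, and shares over all sites were taken at the main settings only. Of 19 named shared sites, the Runx3 site at 85.9 kb reversed, to -0.798 by −log10 p and -8.11 by pileup. Smaller differences changed sign at Runx3 P1 and at the Cbfb site at 54.4 kb (1.18 to -2.99 and -5.49); of the values at the other 16 sites, all but 1 moved by less than 10 points. The overlap rule changed no count.

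No paired analysis was possible because the deposited peak lists hold each genotype as 1 pool of its replicates. For the same reason, leaving out a replicate was not run.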

Other observations

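Near the limit of detection, 4 peaks in the windows missed the ChrAcc criteria. A WT peak upstream of Runx3 P1 had 21 fragments and a fold enrichment of 3.87, and a dKO peak next to the Runx1 start had 29 fragments and a fold enrichment of 3.6; no site of the other list lay over either. The remaining 2 were the WT peaks in Runx1 introns already described as lying under dKO-only sites, with 20 and 18 fragments.

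One of the 51 places, the shared site 49.5 kb upstream of Cbfb, had 1 near-identical copy of its 201 bp elsewhere in the genome, at 90% identity or more over at least 80% of the length. It stood at percentile 71.4 in WT and 63.4 in dKO cells. The other 50 had none.

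Among the windows of the 17 other lineage genes, the largest gap was at Stat5b, with 16 WT and 10 dKO sites, 6 of them WT-only and none dKO-only. Runx2, the third Runx gene, went the other way, with 8 WT and 10 dKO sites, and Ets1 had 16 in each list.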
